A study of Rattus norvegicus with 20 samples.

Results

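The 10 antioxidant and NRF2 target genes Nqo1, Hmox1, Gclc, Gclm, Txnrd1, Srxn1, Sod1, Sod2, Cat and Gpx1 were looked up by gene symbol in a table of read counts with 32495 named gene rows. A row was found for 9 of them, and all 9 passed the filter on low counts that left 11716 genes for testing. Srxn1 was not analysed here. The samples were gastrocnemius muscle, a hindlimb muscle, of female Fischer 344 rats that all carried the Ward colorectal tumour, so every group shares the tumour and no tumour-free muscle was compared. TUMOUR STD rats (5 libraries) ate the standard diet and received no chemotherapy. CHEMO STD rats (7 libraries) ate the standard diet and received 2 cycles of irinotecan (CPT-11) with 5-fluorouracil (5-FU). CHEMO FO rats (8 libraries) received the same drugs and were moved, when chemotherapy began, to a diet containing fish oil, a source of the omega-3 fatty acids EPA and DHA. The study gives the age of the rats without a unit, and it is left out here.

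NRF2, encoded by Nfe2l2, is a transcription factor that KEAP1 marks for destruction in unstressed cells. Oxidants and electrophiles block KEAP1, and NRF2 then pairs with a small MAF protein on antioxidant response elements of genes that make glutathione, reduce thioredoxin and quinones and break down haem. In muscle, a tissue rich in mitochondria, superoxide dismutases, catalase and glutathione peroxidases remove superoxide and peroxides, and many of these genes are under several controls besides NRF2.

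Libraries held 3023899 to 10887041 counts on genes. CHEMO STD replicates 1 and 2 were far more alike than any other pair within a group (chi-square per gene 2.23, against 13.7 to 255, where sampling noise alone gives about 1). They differed by more than that noise, but were summed and counted as 1 sample, which left 19 samples and 6 in CHEMO STD. Levels are in CPM, that is, counts scaled to a common library size after TMM normalisation. Since CPM is not divided by gene length, levels are compared between samples and not between genes. The 7 skeletal muscle markers with a row (among them Acta1, Ckm and Myh4) summed to between 122560 and 235910 CPM, so the labelled tissue carried its defining genes in every sample, while the neutrophil markers summed to at most 5.70 CPM. In whole muscle, fewer cells of a type and less RNA per cell cannot be told apart. Separate animals are not named for each library, so p-values measure the spread between these samples.

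CHEMO FO replicate 18 stood apart from the other 18 samples. It held the highest level of 2185 of the 11716 tested genes (18.6%), compared with 2.03% to 12.1% in each other sample. It was the deepest CHEMO FO library (9130631 counts). Its skeletal muscle markers were the lowest of all samples at 122560 CPM, and its 10 macrophage markers the highest at 713 CPM. Values of the members in the fish oil comparisons are therefore also given without this library, a choice made after seeing the data.

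**Figure D1:**
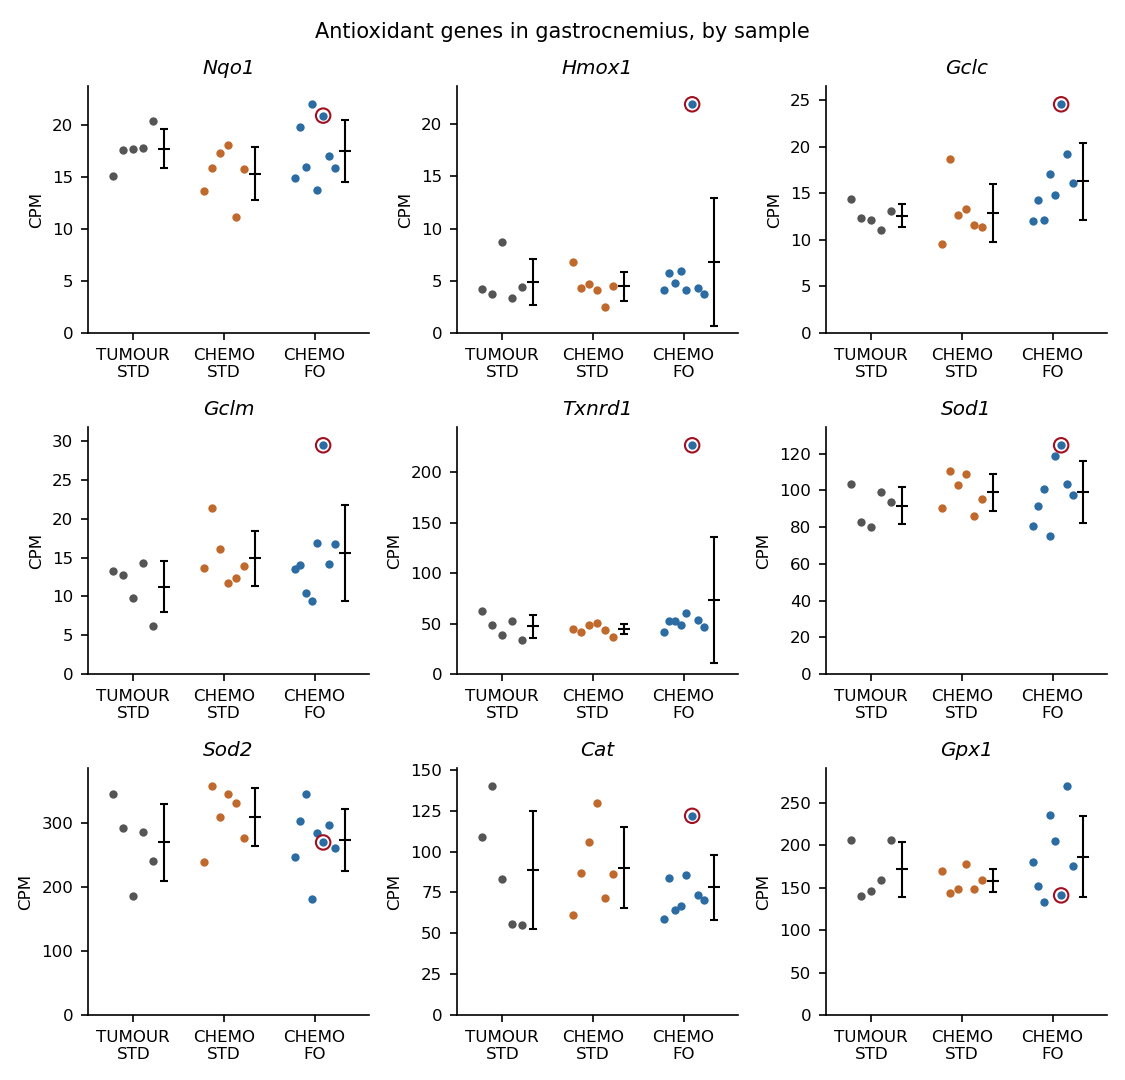
Level of each of the 9 members (vertical axes, CPM, from 0) in the 5 TUMOUR STD, 6 CHEMO STD and 8 CHEMO FO samples; each point is a sample, black bars are the mean with SD, and the red ring marks CHEMO FO replicate 18. The ranges of the groups overlap in every panel, and the ringed sample lies far above the rest for Txnrd1 (227 CPM) and Hmox1 (21.9 CPM).

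Chemotherapy on the standard diet was compared with no chemotherapy to ask whether the drugs changed these genes. No member was called in CHEMO STD versus TUMOUR STD (0 of 9), and 5 of the 9 had higher and 4 lower fitted levels, with a median log2 fold change of 0.0087. Calling a gene took a fold change of at least 1.5 together with an unadjusted edgeR p under 0.05, and 279 of the 11716 genes (2.38%) were called in this comparison. With the fold threshold dropped, and with DESeq2 in place of edgeR, the count of members stayed 0. DESeq2 called 126 of the 11716 genes higher and 168 lower. Over all genes the median edgeR log2 fold change was -0.0016. After Benjamini-Hochberg adjustment no gene passed with edgeR (0%) or DESeq2, while 762 genes had an unadjusted edgeR p below 0.05.

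The fish oil diet was compared with the standard diet within chemotherapy. In CHEMO FO versus CHEMO STD, 1 of the 9 members was called, Txnrd1, against 195 of 11716 genes (1.66%). The fitted levels of 7 members were higher and of 2 lower, with a median log2 fold change of 0.20, compared with -0.0060 over all genes. Without CHEMO FO replicate 18 no member was called, 4 were higher and 5 lower, and the median was -0.0058. At that setting 170 of 11583 genes were called. No gene passed the adjusted threshold (0% with edgeR, smallest adjusted p = 0.974, and 0 genes with DESeq2), while 528 genes had an unadjusted edgeR p below 0.05.

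Both interventions together were compared with the tumour alone. In CHEMO FO versus TUMOUR STD, no member was called with edgeR and 1 (Txnrd1) with DESeq2, against 422 genes (3.6%) with edgeR. DESeq2 called 131 of the 11716 genes higher and 268 lower. The fitted levels of 7 members were higher and of 2 lower, with a median log2 fold change of 0.12, compared with 0.0023 over all genes. Without CHEMO FO replicate 18 the median of the members was 0.07, with 6 higher and 3 lower. No gene passed the adjusted threshold with edgeR (0%; 1059 genes had an unadjusted p below 0.05) and 11 genes did with DESeq2. The diet comparisons share the 8 CHEMO FO samples, and each pair of comparisons shares a group, so the 3 sets of values are not independent.

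Single members were also tested on mean log2 CPM by a two-sided exact permutation test of samples, adjusted over 27 tests. No member passed 0.05 before or after adjustment in any comparison. The smallest adjusted p of the exact permutation tests was 0.638, whereas the designs allowed unadjusted exact p-values as low as 0.0022, 0.000333 and 0.00078 in the 3 comparisons. The ranges of the groups overlapped for each of the 9 members in each of the 3 comparisons. Overlap was not counted over all genes tested, so it cannot be read as particular to the members.

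**Figure D2:**
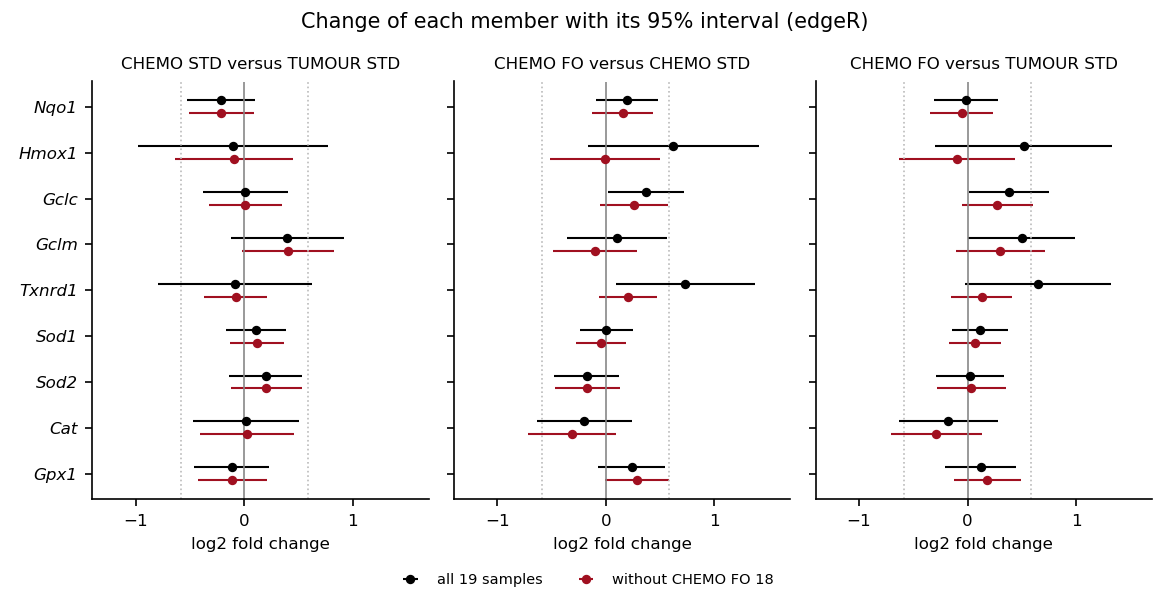
Log2 fold change of each member (horizontal axes) with its 95% interval from edgeR in the 3 comparisons, with all 19 samples (black) and without CHEMO FO replicate 18 (red); dotted lines mark a 1.5-fold change either way. The black points of Txnrd1 (0.73) and Hmox1 (0.62) lie to the right in CHEMO FO versus CHEMO STD, and the red points lie at 0.21 and -0.0058.

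Txnrd1 encodes cytosolic thioredoxin reductase, the selenoenzyme that keeps thioredoxin reduced at the cost of NADPH. It was measured at 62.9, 48.7, 38.7, 52.3 and 33.4 CPM in TUMOUR STD (replicates 8 to 12, the order used throughout). The 6 CHEMO STD samples ran from 36.8 to 50.9 CPM (median 44.2), and the 8 CHEMO FO samples from 41.3 to 227 CPM (median 52.6). Apart from replicate 18, the highest CHEMO FO value was 60.8 CPM, below the highest TUMOUR STD value. In CHEMO FO versus CHEMO STD the log2 fold change was 0.73 ± 0.31 (SE; 1.66-fold, 95% interval 1.07 to 2.59), which met the call, with an edgeR adjusted p = 0.974. The exact permutation test of the same samples gave p = 0.0986, and p = 0.0548 without replicate 18. Without replicate 18 the log2 fold change was 0.21 ± 0.13 (edgeR adjusted p = 0.889; 1.15-fold, 95% interval 0.96 to 1.39), and without CHEMO STD replicate 7 it was 0.68 ± 0.34, and in neither case was Txnrd1 called. Against TUMOUR STD it was 0.65 ± 0.33 (edgeR adjusted p = 0.554; 1.56-fold, 95% interval 0.98 to 2.49), and 0.13 ± 0.14 without replicate 18. Chemotherapy on the standard diet gave -0.09 ± 0.34 (edgeR adjusted p = 0.961).

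Gclc and Gclm encode the catalytic and modifier subunits of glutamate-cysteine ligase, the rate-limiting enzyme of glutathione synthesis. Gclc was measured at 14.4, 12.3, 12.1, 11.0 and 13.1 CPM in TUMOUR STD. It ran from 9.59 to 18.7 CPM in CHEMO STD (median 12.1) and from 12.0 to 24.5 CPM in CHEMO FO (median 15.4). The highest CHEMO FO value was again replicate 18, and CHEMO STD replicate 3, at 18.7 CPM, lay above 6 of the 8 CHEMO FO samples. In CHEMO FO, Gclc differed by a log2 fold change of 0.37 ± 0.17 from CHEMO STD (edgeR adjusted p = 0.974; 1.29-fold, 95% interval 1.01 to 1.65) and of 0.38 ± 0.18 from TUMOUR STD (edgeR adjusted p = 0.544; 1.30-fold, 95% interval 1.01 to 1.68). Both had an unadjusted p under 0.05 and lay under the fold threshold. Without replicate 18 these values were 0.26 (95% interval of the fold 0.96 to 1.49) and 0.27 (0.96 to 1.52). Chemotherapy alone left Gclc at a log2 fold change of 0.0087 (95% interval of the fold 0.77 to 1.32).

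Gclm was measured at 13.2, 12.7, 9.81, 14.2 and 6.21 CPM in TUMOUR STD. It ran from 11.8 to 21.4 CPM in CHEMO STD (median 13.8) and from 9.43 to 29.4 CPM in CHEMO FO (median 14.1). The TUMOUR STD samples held the lowest value of the gene and the CHEMO FO samples the highest, in replicate 18. In CHEMO FO versus TUMOUR STD the log2 fold change was 0.50 ± 0.24 (edgeR adjusted p = 0.551; 1.41-fold, 95% interval 1.00 to 1.99), under the fold threshold, and 0.30 ± 0.20 without replicate 18. In CHEMO STD versus TUMOUR STD it was 0.40 ± 0.25 (edgeR adjusted p = 0.728), the largest change of a member with chemotherapy on the standard diet. The diet comparison within chemotherapy gave 0.10 ± 0.22, and -0.10 without replicate 18.

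The windows upstream of the members were searched for the core of the antioxidant response element, written TGACNNNGC, on both strands of the 250 bases before each gene start in RefSeq (build GRCr8, a later build than the one behind the counts). A window was found for 9 of the 10 members, with Srxn1 among them and Hmox1 not, so Hmox1 was not searched. The core was present for 3 of these 9 (Txnrd1, Gclm and Sod2), compared with 11.0% of the 27457 genes with a window and 17.3% of the pathway genes with one. When the 3 open letters read TCA the core contains an AP-1 site, which none of these 3 matches does. The windows of Gclm and Txnrd1 are shown because both genes were over 2-fold higher in replicate 18, and that of Sod2 because it holds the core and its level there was 0.95 times the group median. Each is written 5′ to 3′ in the direction of the gene, and capitals mark the core, which in all 3 reads on the opposite strand.
Gclm, chr2:213031885-213032134, plus strand: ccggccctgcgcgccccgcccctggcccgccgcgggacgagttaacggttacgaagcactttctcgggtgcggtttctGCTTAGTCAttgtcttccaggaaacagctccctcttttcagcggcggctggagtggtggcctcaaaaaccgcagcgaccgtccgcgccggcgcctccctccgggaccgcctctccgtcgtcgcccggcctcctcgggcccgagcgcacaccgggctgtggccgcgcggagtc
Txnrd1, the more downstream of its 2 listed starts, chr7:22755905-22756154, minus strand: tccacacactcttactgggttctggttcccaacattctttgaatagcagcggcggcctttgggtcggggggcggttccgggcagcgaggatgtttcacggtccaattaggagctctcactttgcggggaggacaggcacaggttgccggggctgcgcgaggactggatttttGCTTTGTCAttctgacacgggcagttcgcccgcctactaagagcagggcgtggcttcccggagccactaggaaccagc
Sod2, chr1:50050169-50050418, minus strand: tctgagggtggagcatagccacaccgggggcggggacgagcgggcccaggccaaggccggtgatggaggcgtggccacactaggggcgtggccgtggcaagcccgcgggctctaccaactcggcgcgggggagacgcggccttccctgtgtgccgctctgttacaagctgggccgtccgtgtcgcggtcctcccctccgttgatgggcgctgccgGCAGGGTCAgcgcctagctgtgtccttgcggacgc
The core lay 164 to 172 bases before the start of Gclm, 70 to 78 before that of Txnrd1 and 27 to 35 before that of Sod2. A match of letters is a description of the window and says nothing of binding in this muscle. Sequence farther from the start was not searched, so a window without the core does not mean a gene without the element.

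Hmox1 encodes haem oxygenase 1, which splits haem into biliverdin, carbon monoxide and iron. It was the least counted member, with 12 to 241 counts per sample. It was measured at 4.17, 3.78, 8.74, 3.40 and 4.44 CPM in TUMOUR STD, where replicate 10 lay apart from the other 4. The CHEMO STD samples ran from 2.48 to 6.76 CPM (median 4.40) and the CHEMO FO samples from 3.74 to 21.9 CPM (median 4.56). Apart from replicate 18, no CHEMO FO sample exceeded 5.93 CPM. For CHEMO FO versus CHEMO STD the log2 fold change was 0.62 ± 0.38 (edgeR adjusted p = 0.974; 1.54-fold, 95% interval 0.89 to 2.66), and -0.0058 ± 0.24 without replicate 18. Against TUMOUR STD it was 0.52 ± 0.39 (edgeR adjusted p = 0.689) and -0.10 without that library. TUMOUR STD replicate 10 also held the most keratinocyte marker counts, 515 CPM summed over 7 genes against a group median of 6.78, and the part of these cells in its Hmox1 level was not tested.

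Nqo1 encodes NAD(P)H quinone dehydrogenase 1, a classical NRF2 target that reduces quinones. It was measured at 15.1, 17.6, 17.7, 17.8 and 20.4 CPM in TUMOUR STD. It ran from 11.2 to 18.1 CPM in CHEMO STD (median 15.8) and from 13.8 to 21.99 CPM in CHEMO FO (median 16.5). All 3 groups lay close together, and replicate 18, at 20.9 CPM, was not the highest sample. Its log2 fold change was -0.21 ± 0.15 with chemotherapy (edgeR adjusted p = 0.732; 95% interval of the fold 0.69 to 1.07) and 0.20 ± 0.14 with fish oil (edgeR adjusted p = 0.974; 95% interval 0.94 to 1.40), the latter 0.16 ± 0.14 without replicate 18.

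The dismutases Sod1 (cytosolic) and Sod2 (mitochondrial) convert superoxide to hydrogen peroxide. Sod1 averaged 91.7 ± 10.1 CPM (SD, n = 5) in TUMOUR STD, 98.9 ± 9.97 (n = 6) in CHEMO STD and 98.9 ± 17 (n = 8) in CHEMO FO. Its log2 fold change with fish oil was 0.0047 ± 0.12, with a 95% interval of the fold from 0.85 to 1.19, the narrowest of the 9 members in that comparison, and -0.045 ± 0.11 without replicate 18. Sod2 averaged 270.1 ± 59.9 CPM in TUMOUR STD, 310.0 ± 44.9 in CHEMO STD and 273.9 ± 48.1 in CHEMO FO. Replicate 18 lay inside the range of its group for Sod2, at 269.9 CPM. The log2 fold change of Sod2 was 0.20 ± 0.16 with chemotherapy (edgeR adjusted p = 0.758) and -0.18 ± 0.14 with fish oil (edgeR adjusted p = 0.974; -0.17 without replicate 18).

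Cat encodes catalase and Gpx1 glutathione peroxidase 1, which remove hydrogen peroxide. Cat varied most in TUMOUR STD, where it was measured at 109, 139.9, 83.4, 56.0 and 55.4 CPM. It ran from 61.2 to 129.7 CPM in CHEMO STD (median 86.7) and from 58.6 to 122 CPM in CHEMO FO (median 72.2), with replicate 18 again the highest of its group. With fish oil, Cat had a log2 fold change of -0.20 ± 0.21 (edgeR adjusted p = 0.974), and of -0.31 ± 0.19 (edgeR adjusted p = 0.889) without replicate 18. Gpx1 averaged 171 ± 32.2 CPM in TUMOUR STD, 158 ± 13.6 in CHEMO STD and 186 ± 47.5 in CHEMO FO. Its spread was largest in CHEMO FO (133.5 to 269 CPM), where replicate 18 lay near the low end at 141 CPM. Gpx1 had a log2 fold change of 0.24 ± 0.15 with fish oil (edgeR adjusted p = 0.974; 1.18-fold, 95% interval 0.95 to 1.46), and of 0.29 ± 0.14 (edgeR adjusted p = 0.889) without replicate 18. Nqo1, Sod1, Sod2, Cat and Gpx1 had log2 fold changes from -0.18 (Cat) to 0.12 (Gpx1) in CHEMO FO versus TUMOUR STD, and from -0.29 to 0.18 for the same genes without replicate 18.

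In replicate 18, 5 of the 9 members had their highest level of all 19 samples (Hmox1, Gclc, Gclm, Txnrd1 and Sod1), compared with 18.6% of all genes. Against the median of the other 7 CHEMO FO samples, Hmox1 was 5.07 times as high there (241 counts), Txnrd1 4.31 times (2497 counts), Gclm 2.09 times and Gclc 1.66 times. Cat was 1.73 times, Nqo1 1.31 times and Sod1 1.28 times as high, while Sod2 and Gpx1 stood at 0.95 and 0.78 times. The members of glutathione synthesis, thioredoxin reduction and haem breakdown were thus all at their highest in this library, whereas Nqo1, of quinone reduction, was not. Of the superoxide and peroxide enzymes Sod1 was at its highest there, and Sod2, Cat and Gpx1 were not. Over 2-fold were 3 of the 9 members, 15 of 105 pathway genes (14.3%) and 7.84% of all genes. Since this is a single library, no test applies, and the share of pathway genes that were highest there (20 of 105, 19%) was near that of all genes.

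**Figure D3:**
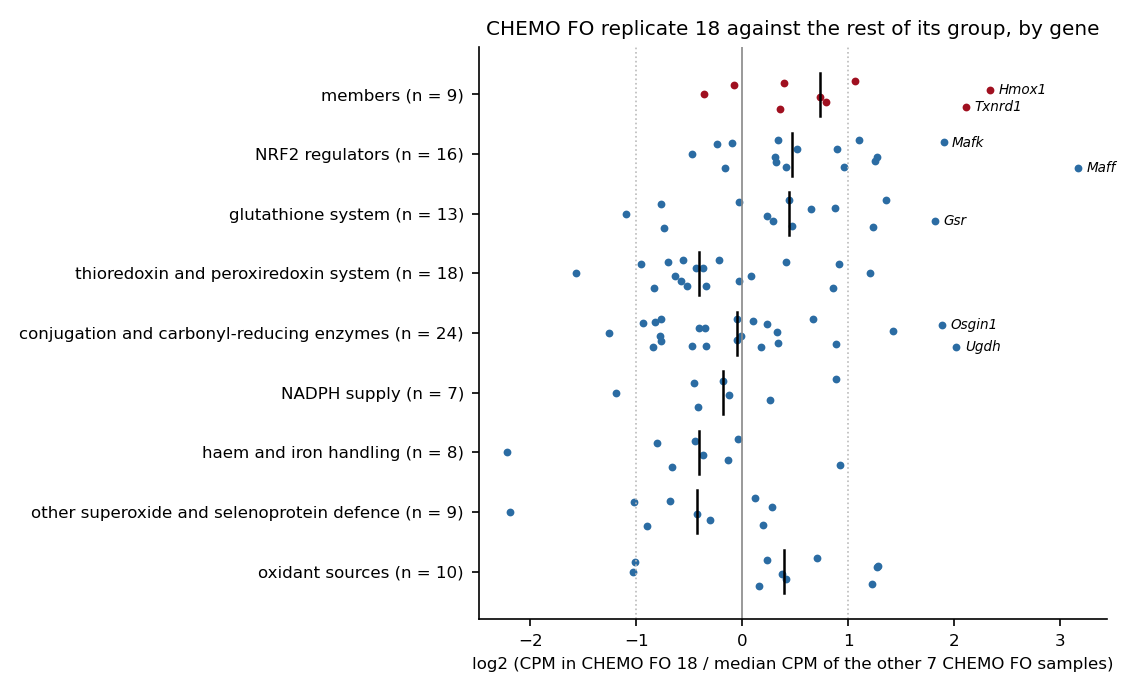
Log2 ratio of the CPM in CHEMO FO replicate 18 to the median CPM of the other 7 CHEMO FO samples (horizontal axis), for the 9 members (red) and the tested genes of 8 pathway lists (blue); each point is a gene, black bars are medians and dotted lines mark a 2-fold ratio. Maff (9.02 times), Hmox1 (5.07 times) and Txnrd1 (4.31 times) lie farthest to the right, while the median of the thioredoxin and peroxiredoxin list lies at -0.41.

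Other cell and tissue genes moved in the same library, and their part in these values was not tested. Macrophage markers summed to between 193 and 359 CPM in TUMOUR STD, 248 and 439 in CHEMO STD and 199 and 713 in CHEMO FO. Of the 10 macrophage markers, 6 were highest there and 5 were over 2-fold, led by Cd163, the haemoglobin scavenger receptor, at 273 CPM (7.84 times the median of the rest of its group). Lyz2 and Csf1r, which also mark macrophages, stood at 1.00 and 0.98 times and Adgre1 at 0.66 times. Of the 7 muscle markers none was highest there, and Acta1 and Ckm stood at 0.41 and 0.49 times. All 5 tested erythroid markers and 4 of the 6 adipocyte markers were below 0.5 times the median of the other CHEMO FO samples. Between groups, no skeletal muscle, erythroid, endothelial or adipocyte marker was called with edgeR in any comparison, and no neutrophil marker passed the filter. The 5 erythroid markers tested were all lower in CHEMO FO versus CHEMO STD and versus TUMOUR STD (median log2 fold changes -0.79 and -0.74). Without replicate 18 all 5 stayed lower (-0.62 and -0.49). With chemotherapy 3 were higher and 2 lower. All 6 endothelial markers were lower in CHEMO FO versus TUMOUR STD (median -0.36). With chemotherapy and with fish oil, 5 were lower and 1 higher (medians -0.36 and -0.045). The part of these cells in the member levels was not tested. Dsp, the one keratinocyte marker tested, was called lower in both comparisons with TUMOUR STD. The keratinocyte markers summed to 515 CPM in TUMOUR STD replicate 10 and to no more than 7.1 CPM in any other TUMOUR STD sample. Of 11 immediate early genes, Dusp1, Fos and Egr1 were called lower with chemotherapy and Fos, Dusp1 and Zfp36 higher with fish oil, where Fos alone was called without replicate 18. Slow fibre markers had 2 calls lower with chemotherapy (Atp2a2 and Myh7) and 1 (Myh7) lower in CHEMO FO versus TUMOUR STD, where no slow fibre marker was called without replicate 18. All 9 slow fibre markers had lower fitted levels in both of these comparisons (median log2 fold changes -0.36 and -0.28). Without replicate 18, 8 were lower and 1 higher in the second (median -0.20). With fish oil 8 were higher and 1 lower (median 0.21). Among macrophage markers Lyz2 was called higher with chemotherapy and lower with fish oil, and Cd163 higher in CHEMO FO versus TUMOUR STD, with no macrophage call in that comparison without replicate 18. Lyz2 reached 170 CPM in 1 CHEMO STD sample. Its medians were 49.0 CPM in TUMOUR STD, 58.6 in CHEMO STD and 42.8 in CHEMO FO. These marker genes were named after their values were seen.

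**Figure D4:**
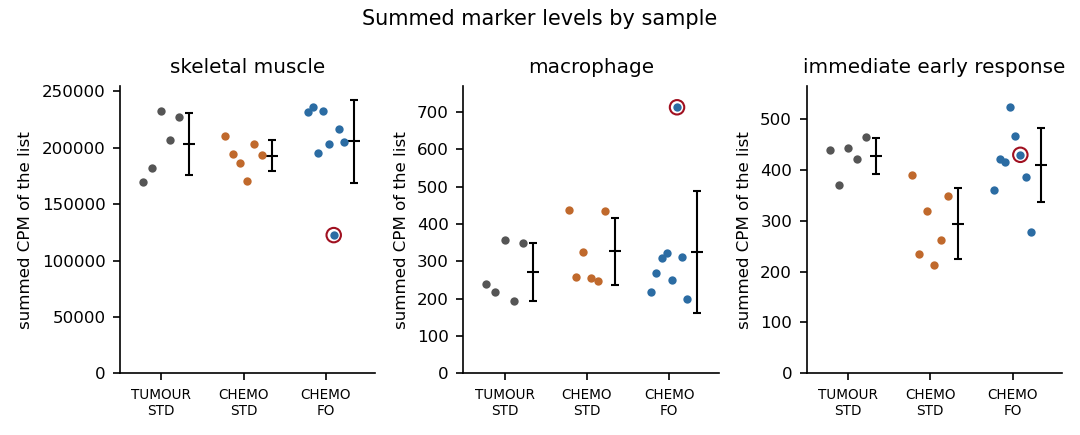
Summed CPM of the skeletal muscle, macrophage and immediate early markers (vertical axes, from 0) by sample in the 3 groups; points are samples, black bars the mean with SD, and the red ring marks CHEMO FO replicate 18. The ringed sample is the lowest for muscle markers (122560 CPM), the highest for macrophage markers (713 CPM) and inside its group for immediate early genes.

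The regulators of the pathway were read beside the members. Nfe2l2 ran from 42.5 to 102 CPM in CHEMO FO (median 52.8), and its log2 fold change was 0.25 ± 0.17 with fish oil (edgeR adjusted p = 0.974) and -0.17 ± 0.19 with chemotherapy (edgeR adjusted p = 0.827). Keap1, its inhibitor, had a log2 fold change of 0.32 ± 0.13 with fish oil (edgeR adjusted p = 0.974) and Bach1, a repressor of Hmox1, of 0.53 ± 0.22 (edgeR adjusted p = 0.974), both at an unadjusted p under 0.05 and under the fold threshold. Without replicate 18 the log2 fold changes with fish oil were 0.082 ± 0.13 for Nfe2l2, 0.26 ± 0.12 for Keap1 and 0.27 ± 0.16 for Bach1, of which Keap1 alone kept an unadjusted p under 0.05. Nfe2l2, Keap1 and Bach1 all had their highest level of 19 samples in replicate 18, at 102, 97.9 and 41.6 CPM.

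Maff and Mafk encode small MAF proteins, the partners of NRF2 and BACH1 on DNA. Maff was called in CHEMO FO versus CHEMO STD (log2 fold change 1.26 ± 0.57, edgeR adjusted p = 0.974) and in CHEMO FO versus TUMOUR STD (1.40 ± 0.60, edgeR adjusted p = 0.524). The level of Maff in replicate 18 was 47.6 CPM, whereas the highest of the other 18 samples was 8.03 CPM. Without that library its log2 fold changes were 0.075 ± 0.34 and 0.22 ± 0.35, and Maff was not called. With fish oil the call of Maff was lost under 7 of 27 alternatives, among them the removal of CHEMO STD replicate 3, 4, 5 or 6, and in CHEMO FO versus TUMOUR STD under 5, among them the removal of TUMOUR STD replicate 8, 9 or 11. Mafk was called in CHEMO FO versus TUMOUR STD (0.70 ± 0.29, edgeR adjusted p = 0.516). It stood at 129 CPM in replicate 18 and at no more than 41.5 CPM elsewhere, and its log2 fold change was 0.27 without that library, under the fold threshold. The NRF2 regulator list of 16 genes had 13 higher and 3 lower fitted levels with fish oil, and a median log2 fold change of 0.24, which was 0.07 without replicate 18.

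Beside the members, 8 lists held 124 genes of the pathway, of which 119 had a row and 105 were tested. With chemotherapy 43 of the 105 were higher and 62 lower, the median log2 fold change was -0.03 and 1 was called, Ephx1, lower. Of all genes tested, 2.38% were called in that comparison. Ephx1 encodes microsomal epoxide hydrolase, and was measured at 23.98, 19, 28.3, 16.8 and 27.1 CPM in TUMOUR STD. It ran from 9.93 to 22.4 CPM in CHEMO STD and from 8.27 to 22.3 CPM in CHEMO FO, so that both chemotherapy groups overlapped the tumour group. Ephx1 had a log2 fold change of -0.63 ± 0.24 (edgeR adjusted p = 0.719) in CHEMO STD and of -0.64 ± 0.22 (edgeR adjusted p = 0.486) in CHEMO FO against TUMOUR STD. Without replicate 18 the latter was -0.53, under the fold threshold. The first was under it (-0.57 to -0.52) in 5 of 27 alternatives, namely without TUMOUR STD replicate 10 or 12, without CHEMO STD replicate 6 or 7, and with CHEMO STD replicates 1 and 2 separate. The second was also under it without TUMOUR STD replicate 10 or 12 or CHEMO FO replicate 20.

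With fish oil, 61 of the 105 pathway genes were higher and 44 lower, the median log2 fold change was 0.03 and 1 was called (Maff, higher). Of all genes tested, 1.66% were called in that comparison. Without replicate 18, 64 of the pathway genes then tested were higher and 40 lower, with a median of 0.061. In CHEMO FO versus TUMOUR STD, 55 were higher and 50 lower, the median was 0.02 and 4 were called, Maff and Mafk higher and Ephx1 and Gpx7 lower. Of all genes tested, 3.6% were called in that comparison. Without replicate 18, 54 of the pathway genes were higher and 50 lower, with a median of 0.0081. Gpx7, a glutathione peroxidase of the endoplasmic reticulum, had a log2 fold change of -0.71 ± 0.31 (edgeR adjusted p = 0.524), and lost its call when TUMOUR STD replicate 12 (-0.39) or CHEMO FO replicate 15 (-0.58) was left out. By list, the calls fell in the NRF2 regulators (Maff, Mafk), the glutathione system (Gpx7) and the conjugation and carbonyl-reducing enzymes (Ephx1). The lists of the thioredoxin and peroxiredoxin system (18 tested), NADPH supply (7), haem and iron handling (8), other superoxide and selenoprotein defence (9) and oxidant sources (10) had 0 calls with edgeR in each of the 3 comparisons. At the shares of all genes called, lists this short hold few or no calls, so 0 calls is not a trait of these lists. Without replicate 18, calls among the pathway genes were 1 (Ephx1), 0 and 2 (Gpx7 lower and Ucp3 higher) in the 3 comparisons. Over the 11583 genes then tested, calls higher and lower were 131 and 177, 27 and 143, and 69 and 204. Ucp3 reached 624 CPM in 1 CHEMO FO sample. Its median over all 8 CHEMO FO samples was 78.3 CPM, below the TUMOUR STD median of 90.0 CPM.

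Genes of these lists that were high in replicate 18 included single genes of both thiol systems. Over 2-fold there were 3 of the 13 tested genes of the glutathione system, with a median log2 ratio of 0.44. In the thioredoxin and peroxiredoxin system 1 of 18 was over 2-fold, with a median of -0.41. Gsr, glutathione reductase, stood at 109 CPM there, 3.53 times the median of the other CHEMO FO samples, and Txn1, thioredoxin, at 73.6 CPM (2.31 times). Mafg and Bach1 stood at 2.41 and 2.38 times, Nfe2l2 at 1.94 times and Sqstm1, which binds KEAP1, at 1.86 times. At the other end, Tfrc, the transferrin receptor, stood at 0.22 times and Sod3, the extracellular dismutase, at 0.22 times.

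The genes most like Txnrd1, the one called member, were sought by the correlation of deviations from the group means of log2 CPM over 19 samples. Ptges3 (r = 0.952), Ppp1r15a (r = 0.948) and Stip1 (r = 0.941) were the 3 closest. Without replicate 18 the same correlations were 0.677, 0.678 and 0.722. All genes of a sample share its library depth and TMM scaling.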

How the data were processed

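Gastrocnemius libraries were made by the authors from rRNA-depleted, stranded total RNA. Per the labels and the study's methods, reads were handled with CASAVA 1.9, Trim Galore 0.4.1, FastQC 0.11.4, TopHat2 2.0.10 and Bowtie2 on the rat build Rnor 6, and analysed in Partek Flow with an Ensembl annotation. The deposited values are raw whole-number counts per gene, and how they were counted, strand included, is not given in the sources used here. In the RefSeq annotation of GRCr8, Hmox1, Txnrd1 and Cat overlap other annotated genes, none of which has a row of its own.

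Rows with no gene name (388) were left out. CHEMO STD replicates 1 and 2 were summed. The 3 groups were fitted together in edgeR 4.0.16 (R 4.3.3) with TMM factors, the default filter (minimum count 10, minimum total 15) and the quasi-likelihood test; intervals are 95%. Calls took at least a 1.5-fold change and an unadjusted p under 0.05. Exact permutation tests used log2 CPM with a prior count of 2. Named genes were all members, Nfe2l2, Keap1 and Bach1, called genes of the pathway lists (at most 4 per list and comparison), and the 3 genes most like each called member; other genes were named after their values were seen. The members and lists were chosen with earlier results of these data known. Marker lists covered skeletal muscle, macrophage, erythroid, neutrophil, endothelial, adipocyte, keratinocyte, slow fibre and immediate early genes.

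Alternatives were DESeq2 1.42.0, RLE size factors, no filter, a stricter filter (mean of 10 counts), replicates 1 and 2 as separate libraries or both left out, a fit of the compared groups alone, no fold threshold, a prior count of 0.5 and each library left out. Fits of intervals and lists without CHEMO FO replicate 18 were added after seeing the data. Scripts were tested on simulated data first. Figures were drawn with matplotlib 3.10.9.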

Additional observations from a re-analysis of the deposited data

Results flagged for a closer look

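Of 16 genes examined in 3 groups each, 10 values lay farther from their group than Dixon's 95% limit allows. No rate expected by chance is set beside these values. Some of the genes were chosen for calls in these data, and the calls of Maff and Mafk were lost without CHEMO FO replicate 18. Values of different genes in 1 library are also not independent. CHEMO FO replicate 18 accounted for 8 of the 10 values. In that library Hmox1 stood at 21.903 CPM (next sample 5.93), Txnrd1 at 226.94 (next 60.8), Gclm at 29.446 (next 16.9) and Cat at 121.88 (next 86.0). The regulators Nfe2l2 at 101.7 CPM (next 61.6), Bach1 at 41.625 (next 23.2), Maff at 47.623 (next 8.03) and Mafk at 129.33 (next 41.5) were set apart in the same library. The other 2 values were Hmox1 in TUMOUR STD replicate 10 (8.7432 CPM, next 4.44) and Mafk in TUMOUR STD replicate 11 (36.885 CPM, next 28.3). Each rests on a single library.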

How the results depend on the processing

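The call of Txnrd1 with fish oil held under every alternative run but the removal of CHEMO FO replicate 18 or CHEMO STD replicate 7, and Txnrd1 was called in CHEMO FO versus TUMOUR STD under 8 alternatives. Members called there numbered 1 with DESeq2 and 1 with no filter, and 2 with no fold threshold. Over all genes there, DESeq2 called 131 higher and 268 lower of 11716, and no filter 334 higher and 782 lower of 19364. With no fold threshold 1059 of 11716 genes were called there. In CHEMO FO versus CHEMO STD, no fold threshold gave 2 members and 528 of 11716 genes. With each library left out, members called ranged from 0 to 1 in both fish oil comparisons, as did members past p = 0.05 in the exact permutation test (Gclc without CHEMO STD replicate 3, or CHEMO FO replicate 13 or 15, and Txnrd1 without CHEMO FO replicate 13). No filter gave 971, 722 and 1116 called genes in the 3 comparisons, where more genes were tested, and leaving out both CHEMO STD replicates 1 and 2 gave 603 with chemotherapy. Single libraries moved that count from 161 (TUMOUR STD replicate 10 left out) to 530 (replicate 8 left out), with 450 when TUMOUR STD replicate 11 was dropped, and CHEMO FO versus TUMOUR STD from 273 (without CHEMO FO replicate 18) to 584. The cause was not tested. No paired analysis was possible because each replicate number from 1 to 20 occurs in a single group.

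Of the log2 fold changes of 16 genes under up to 27 alternatives, 1208 kept direction and call, 26 lost a call, 15 gained one and 47 changed sign. With CHEMO STD replicates 1 and 2 separate, chemotherapy gave 0.0043 for Hmox1, -0.039 for Gclc and -0.047 for Cat. With fish oil, Ephx1 was 0.0051 under DESeq2 and 0.18 without both replicates, and Sod1 -0.019 without both. With single libraries left out, the ranges for chemotherapy were -0.11 to 0.25 (Cat), -0.11 to 0.069 (Gclc), -0.26 to 0.23 (Hmox1), -0.047 to 0.37 (Maff) and -0.19 to 0.044 (Txnrd1). For CHEMO FO versus CHEMO STD they were -0.10 to 0.086 (Ephx1), -0.10 to 0.22 (Gclm), -0.0058 to 0.77 (Hmox1) and -0.045 to 0.053 (Sod1). For CHEMO FO versus TUMOUR STD they were -0.31 to 0.048 (Cat), -0.10 to 0.86 (Hmox1), -0.076 to 0.20 (Nfe2l2), -0.060 to 0.045 (Nqo1) and -0.091 to 0.14 (Sod2). Depth limits Gpx7, Maff and Hmox1 most, at 6, 7 and 12 counts in their lowest samples.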
